A study of Drosophila melanogaster with 2 samples.

Results

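The glycolytic enzyme genes of Drosophila melanogaster described here are Pgi, Pfk, Ald1, Tpi, Gapdh2, Gapdh1, Pgk, Pglym78, Eno and Pyk, 10 of the 13945 protein-coding genes on the chromosome arms 2L, 2R, 3L, 3R, 4 and X. They were taken by name as enzymes of the glycolytic chain, and are described by the ChIP-seq peak summits within 500 bp of any of their annotated transcription starts and elsewhere in their bodies. The set was selected on the signal value, rank and offset of these summits in the same peak lists, so those values are given as a description, without a test. All 10 symbols were found in the dm6 annotation, Pyk there being spelled PyK.

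Chromatin was prepared from whole embryos of both sexes, of a stated age of 6 to 24 hours, of 1 transgenic line that stably expresses CG6683 with GFP fused to its C-terminus. The chromatin was sonicated, with a stated size range of 200 to 800 bp, and immunoprecipitated with an antibody against GFP, so the values concern the tagged protein only. There was 1 group, CG6683-GFP, with 2 biological replicates labelled 2 and 3, and a control alignment, not analysed here, went into every peak list. That age range comes from the source name, since the separate age label could not be read as one. Whole embryos pool all cell types, so binding in few cells and weak binding in many cannot be told apart.

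Glycolysis splits glucose into pyruvate in the cytosol. A preparatory phase (Pgi, Pfk, Ald1 and Tpi among the genes described) spends ATP to make triose phosphates, and a payoff phase (Gapdh, Pgk, Pglym78, Eno and Pyk) returns ATP and NADH. In the fly embryo the nuclear receptor ERR turns on many of these genes midway through development, and the same genes are then used heavily by the growing larva.

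The authors deposited an optimal list, kept after thresholding by IDR (irreproducible discovery rate, a measure of how well replicate ranks repeat), a list of pooled candidates and a candidate list per replicate. On dm6 the optimal list held 2980 peaks and each candidate list 30000. The optimal peaks were the 2980 pooled candidates of highest signal value, a score per peak given by the authors with no stated normalization, so ranks rather than signals were set side by side between lists. The lowest optimal signal was 170.6, and the highest on the arms was 3257. Depth is unknown, since no file used here holds read counts, and no interval can be given for a signal. The replicate numbers are those of the dm6 lists. On dm3 they appear exchanged: of 5185 intervals on 2L in the dm6 list labelled replicate 2, 96.82% recur in the dm3 list labelled replicate 3 and 0 in that labelled replicate 2.

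CG6683-GFP marked 4 of the 10 glycolytic genes with an optimal summit at a start. These were Gapdh2, Pgk, Eno and Pyk, with 5 summits between them, against 13.3% of all 13945 protein-coding genes. With a window of 200 bp the count was 2, Gapdh2 and Eno, against 9.064% of all genes. All 4 encode enzymes of the payoff phase, to which 6 of the 10 genes belong. None of the 4 genes of the preparatory phase had an optimal summit at a start, and in a group this small none is close to the share of 13.3%. Among the strongest peaks of the list labelled replicate 2, counted below, the preparatory phase had 1 of 4, Ald1, and the payoff phase 5 of 6. In the other replicate list the counts were 0 of 4 and 4 of 6. The phases were assigned after the values were seen, and the 10 genes include no hexokinase. Of 8 genes of hexose entry and phosphorylation, described below, 1 had such a summit, the hexokinase gene Hex-A with 904.6 at rank 121. In the gene body away from the starts, 1 of the 10 had an optimal summit, against 5.72% of all genes, and this was Pgk with 2 of them.

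At the lower bar of a pooled candidate, 10 of the 10 genes had a summit within 500 bp of a start, against 50.5% of all genes, and among all genes with such a candidate 26.4% had an optimal one. Elsewhere in the body 7 of the 10 had a pooled candidate, against 30.1% of all genes. In the candidate list labelled replicate 2, the counts were 10 of 10 at starts, against 52.7% of all genes, and 9 of 10 in bodies, against 32.4%. In the list labelled replicate 3 they were 9 of 10 at starts, against 49.4%, and 6 of 10 in bodies, against 30.9%. The gene without a start candidate there was Gapdh1. The members with any candidate thus varied by list, and all lists have in common that nearly every glycolytic gene appears in them at some rank.

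Among the 2980 strongest peaks of each replicate list, the count was 6 of 10 genes in the list labelled replicate 2, against 14.0% of all genes, and 4 of 10 in that labelled replicate 3, against 12.8%. The 4 with an optimal summit were present in each. Ald1 and Pglym78 joined them in the list labelled replicate 2 and not in the other. In gene bodies these strongest peaks reached 0 of 10 genes in the list labelled replicate 2, against 5.18%, and 1 of 10 in that labelled replicate 3, against 5.84%, again Pgk.

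**Figure D1:**
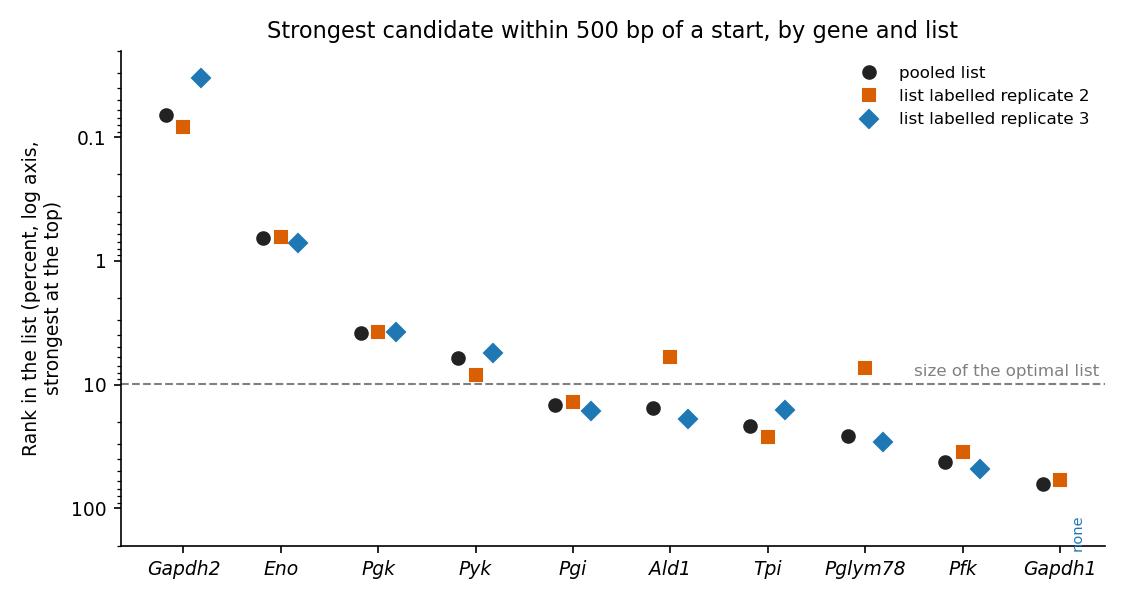
Rank of the strongest candidate within 500 bp of a start of each glycolytic gene, as a percent of the list (vertical log axis, strongest at the top), in the pooled list and in each replicate list, with genes ordered by the pooled rank. Gapdh2, Eno, Pgk and Pyk lie above the dashed line at the size of the optimal list in every list, Ald1 and Pglym78 only in the list labelled replicate 2, and Gapdh1 has no point in the list labelled replicate 3.

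The DNA around most of the optimal summits of the marked genes is shown, with Tpi as an upstream candidate of lower rank for contrast. Each is cut from the Release 6 genome (dm6) within 100 bp of the summit, ends where an annotated exon begins, and runs 5′ to 3′ on the strand of its gene. The Pgk summit at -272 bp lies in an annotated 5′ UTR and is not printed, and the second body summit of Pgk, next to the one shown, is not printed either. The window of that second body summit, of signal 323.7, has a GC content of 49.25%. It has no match to AAATAT, and matches to TATAAA and ACGTG. Capitals mark every match, on either strand, to AAATAT (a word frequent under these peaks), TATAAA (the TATA box), TCAGT (the Initiator core), GAGAG (the GAGA element core), ACGTG (the hypoxia response core) or ACAGTG (another frequent word). TATCGATA (the DNA replication-related element), CACGTG (the E-box) and AAGGTCA (the word of ERR) were searched too and had no match.
Gapdh2, upstream (chrX:15867895-15868095, plus strand, summit at base 101 of 201): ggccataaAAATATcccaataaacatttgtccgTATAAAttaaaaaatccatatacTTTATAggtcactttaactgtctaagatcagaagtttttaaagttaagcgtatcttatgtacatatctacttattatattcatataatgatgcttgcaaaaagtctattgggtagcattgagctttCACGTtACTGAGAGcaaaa
Eno, intron before the innermost start (chr2L:1727881-1728012, minus strand, summit at base 101 of 132): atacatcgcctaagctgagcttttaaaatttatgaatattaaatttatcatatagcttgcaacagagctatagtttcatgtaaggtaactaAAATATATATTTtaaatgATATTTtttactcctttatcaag
Pgk, intron, away from its starts (chr2L:2751902-2752102, minus strand, summit at base 101 of 201): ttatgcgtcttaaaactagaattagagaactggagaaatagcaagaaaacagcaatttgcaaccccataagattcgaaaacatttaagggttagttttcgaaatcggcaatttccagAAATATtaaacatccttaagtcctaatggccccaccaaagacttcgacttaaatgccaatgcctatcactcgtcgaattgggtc
Pgk, intron before an inner start (chr2L:2750323-2750523, minus strand, summit at base 101 of 201): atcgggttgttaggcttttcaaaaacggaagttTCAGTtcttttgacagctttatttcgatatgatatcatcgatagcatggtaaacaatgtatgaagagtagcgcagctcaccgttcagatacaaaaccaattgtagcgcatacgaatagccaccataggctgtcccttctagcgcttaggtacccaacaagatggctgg
Pyk, intron before the inner start (chr3R:22368857-22369057, plus strand, summit at base 101 of 201): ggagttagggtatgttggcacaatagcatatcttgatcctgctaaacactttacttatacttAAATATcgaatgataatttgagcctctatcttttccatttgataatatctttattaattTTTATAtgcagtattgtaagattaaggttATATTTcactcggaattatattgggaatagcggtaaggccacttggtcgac
Tpi, upstream, not an optimal peak (chr3R:30134692-30134855, minus strand, summit at base 64 of 164): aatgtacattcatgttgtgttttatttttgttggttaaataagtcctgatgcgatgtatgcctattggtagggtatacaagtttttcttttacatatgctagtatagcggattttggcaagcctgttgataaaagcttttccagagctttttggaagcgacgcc

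The stretches of Gapdh2, Eno and Pyk are rich in A and T, and the word AAATAT or its reverse complement stands in each. At Eno 3 such matches lie within 12 bp of the summit, while at Gapdh2 the match is 89 bp before it and at Pyk the matches are 35 bp before and 53 bp after it. The printed Pgk stretch before an inner start is richer in G and C and has no such match, and Tpi has no match to any of the words. Other Pgk summits do have the word. It lies 20 bp after the printed body summit, and at -86, -80 and -61 bp from the unprinted start summit at -272 bp. The Gapdh2 stretch also ends in matches to the hypoxia response, Initiator and GAGA element cores, centred 84, 90 and 93 bp after the summit, of which the last pair overlap.

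Pgi (FBgn0003074, chr2R:8910900-8914069, minus strand) encodes phosphoglucose isomerase, which turns glucose 6-phosphate into fructose 6-phosphate. Its strongest pooled candidate had a signal of 133.6 at rank 4364, with the summit exactly at the most 5′ annotated start. In the list labelled replicate 2 the strongest start candidate had 68.78 at rank 4171. It lay 116 bp inside the most 5′ start and -67 bp from the inner one, where a negative offset is upstream. In the list labelled replicate 3 it had 76.73 at rank 4869, at -116 bp from the most 5′ start. Pgi was the highest of the genes left outside the optimal list, and its strongest pooled summit lies at an offset of -455 bp from a start of the neighbouring gene lin.

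Pfk (FBgn0003071, chr2R:10109740-10117457, plus strand) encodes phosphofructokinase, the enzyme of the committed and regulated step. It was among the weakest, with a pooled signal of 63.56 at rank 12546, 446 bp inside the gene in an intron. The values were 38.03 at rank 10594 in the list labelled replicate 2 and 38.54 at rank 14426 in that labelled replicate 3. These replicate candidates lie at different starts, at -39 bp from the inner start and 441 bp from the outer one. The list labelled replicate 2 also had a weaker candidate of 24.78 at rank 18030, 463 bp inside the outer start, so both replicate lists had a candidate near the pooled position, at low rank. Its body held 4 further pooled candidates, the highest at 48.35.

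Ald1 (FBgn0000064, chr3R:26254069-26261591, minus strand) encodes aldolase, which cleaves fructose 1,6-bisphosphate into triose phosphates. Its pooled signal of 129.6 stood at rank 4591 with an offset of -3 bp. In the list labelled replicate 2 a candidate at -35 bp from the same start had 108.8 at rank 1786, inside the strongest 2980. The list labelled replicate 3 had no candidate within 200 bp of that summit. Its strongest for the gene, 69.38 at rank 5722, lay at -132 bp from another start, 3312 bp inside the most 5′ one. The high rank of Ald1 therefore rested on 1 replicate list.

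Tpi (FBgn0086355, chr3R:30132981-30134599, minus strand) encodes triose phosphate isomerase, which interconverts the triose phosphates. The pooled signal was 104.0 at rank 6446 and -193 bp. The replicate values were 46.44 at rank 7933 and -25 bp in the list labelled replicate 2, and 77.49 at rank 4792 and -247 bp in that labelled replicate 3. No list gave Tpi a candidate in the gene body, the only 1 of the 10 genes of which this held.

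Gapdh2 (FBgn0001092, chrX:15868145-15869661, plus strand) encodes glyceraldehyde-3-phosphate dehydrogenase, which oxidises glyceraldehyde 3-phosphate with NAD+. It carried the strongest peak of the pathway and 1 of the strongest of the genome. The pooled signal was 1796 at rank 20 of 30000, and the values were 789.4 at rank 25 in the list labelled replicate 2 and 1005 at rank 10 in that labelled replicate 3. The peak spanned chrX:15867749-15868228, and the 3 summits lay at -150, -159 and -155 bp, within 9 bp of each other. By the strongest pooled candidate at a start, Gapdh2 was gene 4 of the 7038 with one.

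Gapdh1 (FBgn0001091, chr2R:7791901-7793380, minus strand) encodes the other copy of the same enzyme, and was the lowest of the 10. Its only pooled candidate had a signal of 44.99 at rank 19192 and lay 298 bp inside the nearest start, in the coding exon. The list labelled replicate 2 had a start candidate of 25.11 at rank 17759, at 85 bp, which is also -480 bp from a start of PolZ1, and a body candidate of 30.84. The list labelled replicate 3 had no candidate in the gene or within 500 bp of its starts. None of the Gapdh1 summits lay upstream of a start, the position of the Gapdh2 peak.

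The ratio of the strongest start signals, Gapdh2 over Gapdh1, was 39.92 in the pooled list and 31.44 in the list labelled replicate 2. The ratio could not be formed in the list labelled replicate 3. The pooled Gapdh1 value of 44.99 stood near the lowest signal of the pooled list, 28.54. That candidate had none within 200 bp in either replicate list, so the ratio of 31.44 uses another Gapdh1 summit, 85 bp inside. Away from the starts the paralogues were alike in being weak. Gapdh2 had 1 body candidate, in its 3′ UTR, with 37.45 in the pooled list, 17.03 in the list labelled replicate 2 and 40.7 in that labelled replicate 3, and Gapdh1 had the 1 in the list labelled replicate 2 only. The difference between the paralogues lay at the upstream summit of Gapdh2.

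The coding sequences of Gapdh2 and Gapdh1 are each 996 bp long and share 884 of 996 bases (88.76%), with a longest identical run of 38 bases. In the 500 bp upstream of the most 5′ start of each, the longest run shared on either strand is 9 bases. The authors' treatment of reads that match both copies was not stated in the labels or files. The Gapdh2 peak ends 84 bp into the gene, before the coding sequence, which begins 191 bp from the most 5′ start.

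The surroundings differed less than the starts. A pooled candidate of 375.7 at rank 759, an optimal peak, lay 1333 bp beyond the end of Gapdh2, with 159.9 at rank 774 in the list labelled replicate 2 and 218.2 at rank 838 in that labelled replicate 3. A candidate of 165.4 at rank 3138, just below the optimal list, lay 337 bp beyond the end of Gapdh1, with 85.63 at rank 2842 and 75.2 at rank 5036. The protein-coding start nearest to each belonged to a neighbouring gene, CG16952 (811 bp) for Gapdh2 and CG12824 (1196 bp) for Gapdh1.

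**Figure D2:**
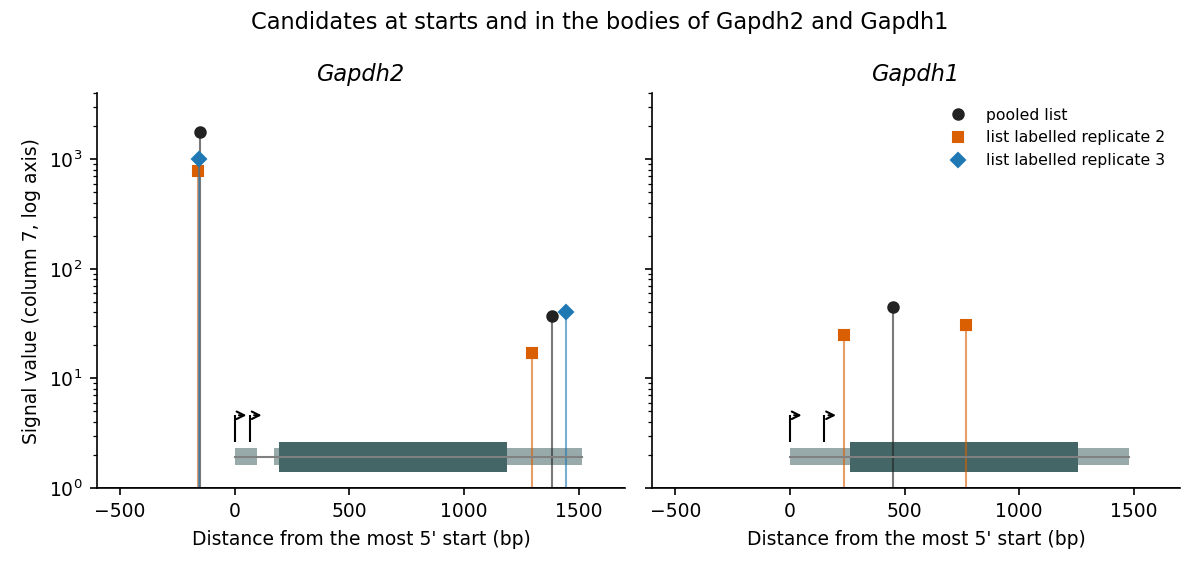
Signal value (vertical log axis) of candidates along Gapdh2 (left) and Gapdh1 (right), by distance in bp from the most 5′ start, in the pooled list and in each replicate list, above the exons (dark, coding) with starts as arrows. The 3 Gapdh2 summits stand at -150 to -159 bp with signals of 789.4 to 1796, and Gapdh1 has a pooled candidate of 44.99 in its coding exon and no candidate upstream.

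Pgk (FBgn0250906, chr2L:2746880-2753068, minus strand) encodes phosphoglycerate kinase, which makes the first ATP of the payoff phase. It had more optimal summits than any other of the 10 genes, 2 at starts and 2 in its body. The stronger start summit had a pooled signal of 304.3 at rank 1156, with 134.7 at rank 1119 in the list labelled replicate 2 and 185.0 at rank 1132 in that labelled replicate 3, at -272, -271 and -279 bp. The other had 270.8 at rank 1419, with 120.5 at rank 1429 and 149.0 at rank 1664, and lay -276 bp from its start in the pooled list. These ranks were close in every list, and 1.23% of all genes had 2 or more optimal summits at starts.

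The body summits of Pgk were stronger in the pooled list but not shared evenly. The peak at chr2L:2751829-2752107 had 427.2 at rank 613, with 388.0 at rank 270 in the list labelled replicate 3 and no candidate within 200 bp in that labelled replicate 2. The peak at chr2L:2752097-2752325 had 323.7 at rank 1023, with 60.6 at rank 5174 in the list labelled replicate 2 and 285.6 at rank 514 in that labelled replicate 3. Both rested mainly on the list labelled replicate 3. They lie in the first intron of Pgk, at -443 and -241 bp from a start of Bacc, a gene on the opposite strand, so they are body summits of Pgk and start summits of Bacc at once.

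Pglym78 (FBgn0014869, chr3R:29148248-29149901, plus strand) encodes phosphoglycerate mutase. The pooled signal was 90.86 at rank 7783. Its summit lay 62 bp inside the most 5′ start, -32 bp from an inner start and -138 bp from a start of CG11882. The list labelled replicate 2 gave 98.93 at rank 2179, 31 bp inside the most 5′ start. The list labelled replicate 3 had no candidate within 200 bp of the pooled summit, its strongest being 53.35 at rank 8662, 461 bp inside the innermost start. As for Ald1, the high rank was found in the list labelled replicate 2 and not in the other.

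Eno (FBgn0000579, chr2L:1724768-1729636, minus strand) encodes enolase, which dehydrates 2-phosphoglycerate to phosphoenolpyruvate. It ranked next to Gapdh2 in every list. The peak at chr2L:1727694-1728149 had a pooled signal of 748.3 at rank 197, with 317.7 at rank 192 in the list labelled replicate 2 and 430.9 at rank 215 in that labelled replicate 3, at -195, -170 and -119 bp. The same interval is listed again with a weaker summit of 70.49, for which the replicate lists gave 88.6 at rank 2682 and 323.0 at rank 384. This part of the peak, further upstream, thus ranked higher in the list labelled replicate 3 than in that labelled replicate 2. In both lists it was weaker than the part nearer the innermost start.

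Pyk (FBgn0267385, chr3R:22367536-22372746, plus strand) encodes pyruvate kinase, which makes pyruvate and ATP. Its peak at chr3R:22368951-22369171 had a pooled signal of 232.2 at rank 1814, with 91.51 at rank 2526 in the list labelled replicate 2 and 148.6 at rank 1677 in that labelled replicate 3, at -325, -345 and -330 bp. This was the lowest of the optimal values of the pathway. Of the glycolytic genes, Pyk was the nearest inside the lowest optimal signal of 170.6, and Pgi at 133.6 and Ald1 at 129.6 were the nearest outside it, all of them over 1000 ranks away from the last optimal peak.

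The order of the genes was the same at its ends in every list and not in its middle. Gapdh2, Eno and Pgk took the first 3 places in this order in all 3 lists, and Pfk came after every other gene but Gapdh1. Pyk was 4th in the pooled list and in that labelled replicate 3, and 6th in that labelled replicate 2, behind Ald1 and Pglym78. Tpi was 8th in the list labelled replicate 2 and 5th in that labelled replicate 3. Pyk ranked ahead of Pgi and Tpi in all 3 lists. Between the replicate lists the rank of Ald1 ran from 5.953% to 19.07% of the list and that of Pglym78 from 7.263% to 28.87%, and these ranges overlap those of Pyk (5.59% to 8.42%), Pgi (13.9% to 16.23%) and Tpi (15.97% to 26.44%). The ranges of Pgi and Tpi overlap each other as well.

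Among the 7038 genes with a pooled candidate at a start, Eno was gene 161, Pgk 819, Pyk 1201, Pgi 2559, Ald1 2647, Tpi 3484, Pglym78 4004, Pfk 5312 and Gapdh1 6325. The median of the strongest start signal was 131.6 over the 10 glycolytic genes (quartiles 94.14 and 286.3) and 103.1 over all 7038 (64.35 and 176.4). Both quartiles were higher for the glycolytic genes, whose values reached from gene 4 to gene 6325.

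**Figure D3:**
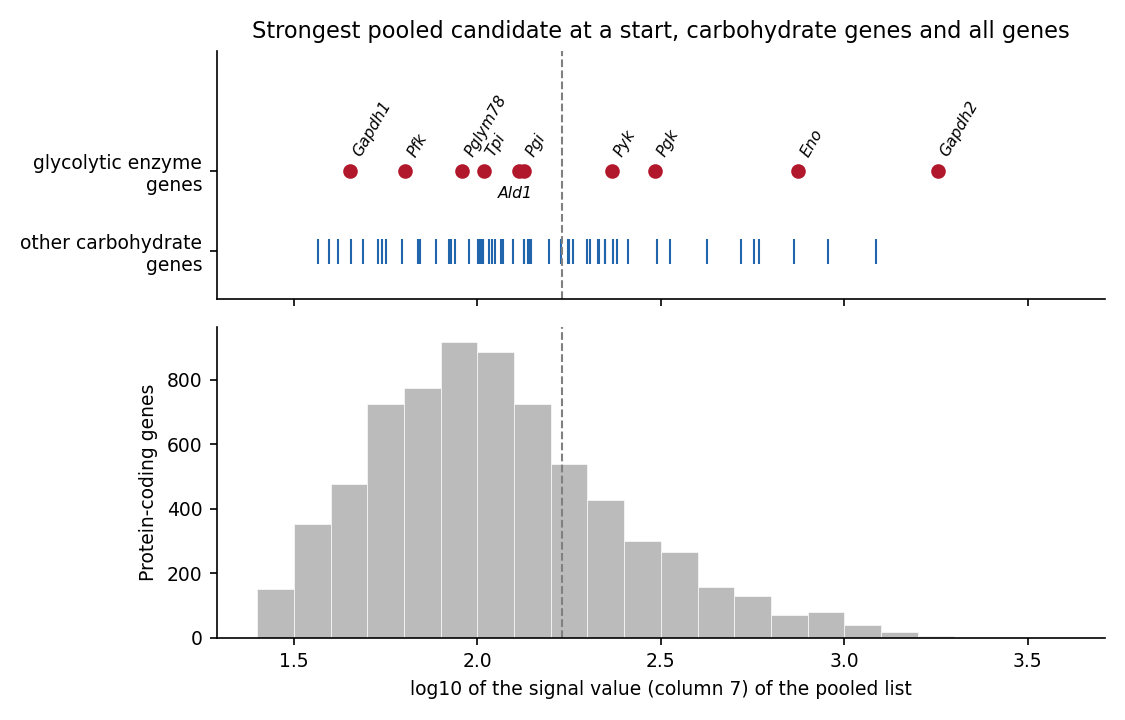
Strongest pooled candidate within 500 bp of a start, as log10 of its signal value (horizontal axis). Above are the 10 glycolytic enzyme genes (circles) and the other carbohydrate genes with a candidate (ticks), below is the number of protein-coding genes per bin, and the dashed line is the lowest optimal signal, 170.6. Gapdh2, Eno, Pgk and Pyk lie to its right and the other 6 glycolytic genes to its left, nearer the bulk of all genes.

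In Eno, Pgk and Pyk, whose starts lie far apart, the strongest optimal start summit stood at an inner start. At Gapdh2, whose 2 starts are 66 bp apart, it was nearest to the most 5′ one. The starts of Eno, Pgk and Pyk span 1919, 4581 and 1746 bp, and in each the innermost start was the nearest one. At Eno that start belongs to 2 of 6 annotated transcripts, at Pyk to 1 of 2, and at Pgk to 1 of 5. This position, over 1000 bp inside the most 5′ start, was found in 3 of 3 glycolytic genes with starts spanning over 1000 bp and an optimal start summit, against 53.1% of 465 such genes overall.

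The most 5′ starts of these genes had pooled candidates too, all outside the optimal list. Eno had 74.35 at 26 bp, Pgk 113.6 at 38 bp and Pyk 118.1 at -150 bp. Each is also near a start of another gene, the Eno summit at -277 bp from CG31937, the Pgk summit at -203 bp from Bacc and the Pyk summit at -13 bp from Polr3F, a subunit gene of RNA polymerase III. Ald1 and Pfk have starts that span 3312 and 1130 bp and had no optimal summit at any. Over all genes, 32.7% of genes with 3 or more distinct starts had an optimal start summit, against 11.6% of those with 1 or 2, and 26.5% of those with starts spanning over 1000 bp. Of the 4 marked genes, Pgk has 5 distinct starts, Eno 3, and Gapdh2 and Pyk 2 each.

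**Figure D4:**
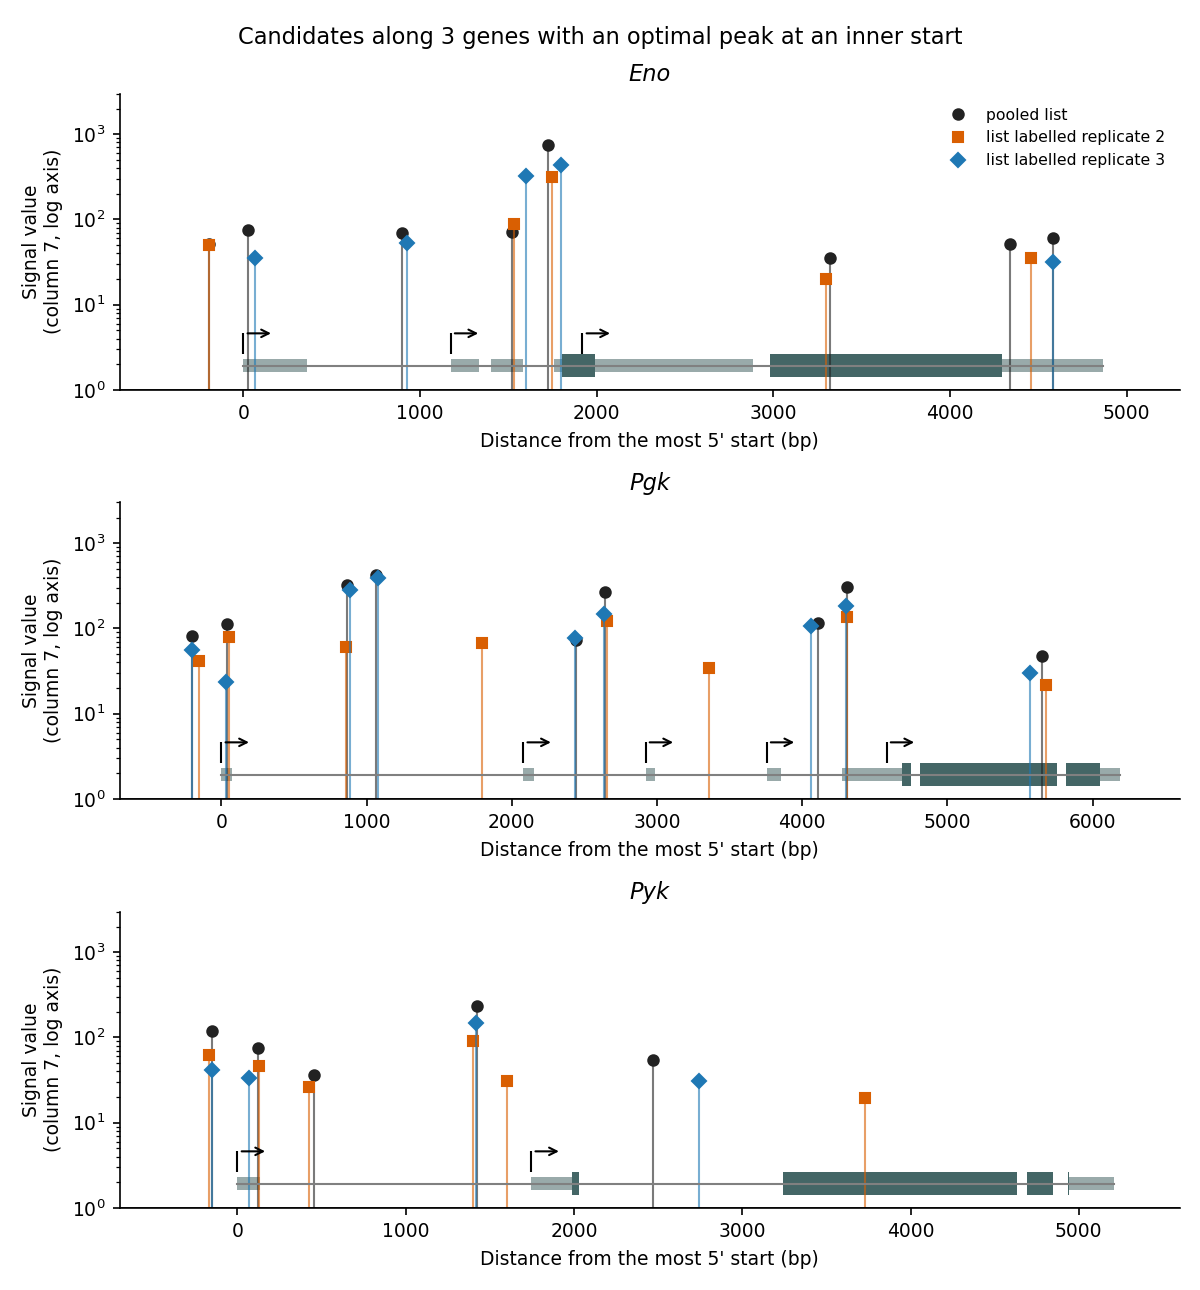
Signal value (vertical log axis) of candidates along Eno, Pgk and Pyk, by distance in bp from the most 5′ start, in the pooled list and in each replicate list, above the exons (dark, coding) with annotated starts as arrows. The highest Eno and Pyk summits lie before the innermost start (748.3 and 232.2), and Pgk has 304.3 and 270.8 before inner starts and 427.2 and 323.7 in its first intron.

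Over all 10 genes there were 42 pooled candidates, 26 at starts and 16 in bodies. By annotation 17 lay in introns, 9 in 5′ UTRs, 6 in 3′ UTRs, 6 upstream and 4 in coding exons. The 7 optimal ones were 5 intronic, 1 upstream and 1 in a 5′ UTR, and 6 of the 7 were upstream of the nearest start. None of the 7 had the default width of 444 bp, against 27.52% of all optimal peaks, and 33 of the other 35 had it, against 98.72% of all pooled candidates outside the optimal list.

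A candidate within 200 bp was found for 6 of the 7 optimal summits in the list labelled replicate 2 and for 7 in that labelled replicate 3. Of the other 35, 24 had one in the list labelled replicate 2, 23 in that labelled replicate 3, and 15 in both. At the 6 optimal summits with both, the pooled signal was close to the sum of the replicate values, with a median ratio of 0.9833 (range 0.935 to 1.005). Over all 21 candidates with both it was 0.9518 (0.1713 to 1.365). The lowest ratio was at the second Eno summit, 70.49 against 88.6 and 323.0. The highest was at Pgi, 133.6 against 21.17 and 76.73. There the nearest candidate labelled replicate 2 was taken, not the stronger one of 68.78. The wider range therefore depends on matching by the nearest summit. The ratio also sets signals of different lists side by side, with no stated normalization.

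GC content within 100 bp of the summit was 29.35% at Gapdh2, 31.34% at Eno and 32.34% at Pyk, and 35.82% and 42.79% at the start summits of Pgk. In the body of Pgk it was 37.81% and 49.25%. Among the genes outside the optimal list it reached from 31.84% at Pfk and 34.83% at Tpi through 45.27% at Pgi and 52.74% at Pglym78 to 56.72% at Gapdh1 and 58.21% at Ald1. Gapdh2 had the lowest value of these and Gapdh1 the highest but for Ald1. Over all genes the median was 34.33% at the 1468 optimal start summits, 41.29% at 8312 other pooled start candidates, and 38.81% in the same length of DNA up to each of 19253 distinct starts.

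Of the words searched in these windows of 201 bp, AAATAT and ACAGTG had led in earlier work on these data. AAATAT was present in 5 of the 7 optimal windows, against 55.99% of optimal start summits of all genes, 36.48% of other pooled start candidates and 39.6% of windows up to starts. TATAAA, the TATA box, was in 3 of 7, against 38.62%, 25.57% and 33.59%, and TCAGT, the Initiator core, in 3 of 7, against 31.61%, 31.39% and 33.44%. ACAGTG was in 1 of 7, the Pgk summit at -272 bp, against 17.23%, 11.09% and 9.401%. The 7 windows include the 2 body summits of Pgk, while the shares set beside them are all of windows at starts. The body window of signal 427.2 held the first of these words, and that of signal 323.7 the TATA box. A match is a description of the letters and not a site.

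GAGAG, the core of the GAGA element, was in 2 of 7, against 22.89%, 25.59% and 25.33%, and ACGTG, the core of the hypoxia response element bound by Sima, in 2 of 7, against 15.33%, 18.03% and 14.18%. The words TATCGATA (DNA replication-related element), CACGTG (E-box, the word of Myc and Mondo) and AAGGTCA (bound by ERR) were in none of the 7, against 5.858%, 2.997% and 1.022% of all optimal start summits. They are in 6.207%, 2.192% and 1.392% of windows up to starts, and in 4.981%, 2.659% and 1.444% of other pooled start candidates. The windows with the hypoxia response core were those of Gapdh2 and of the Pgk body summit of signal 323.7, which is not at a start of Pgk.

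The other genes of carbohydrate metabolism place the pathway among its neighbours. Of 68 symbols in 9 lists, 66 were found in the annotation, and 21 of the 66 had an optimal summit at a start, against 13.3% of all genes. The counts of single lists below are to be read beside the same share, and the lists are short. Counts in the strongest 2980 were 22 of 66 in the list labelled replicate 2, against 14.0%, and 21 in that labelled replicate 3, against 12.8%. The signals of the 21 ran from 176.2 to 1218 with a median of 240.5, and 19 of the 21 summits were upstream of the start, at a median offset of -199 bp. In the strongest 2980, 17 of the 21 recurred in the list labelled replicate 2, 19 in that labelled replicate 3 and 15 in both.

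Among genes that feed the chain, 1 of 8 of hexose entry had an optimal start summit, close to the share of all genes, and 2 of 5 of glycogen and trehalose. Hex-A, a hexokinase that phosphorylates glucose, had 904.6 at rank 121 and -164 bp, with 369.4 at rank 144 in the list labelled replicate 2 and 550.9 at rank 98 in that labelled replicate 3, while 4 of the 8 genes had a pooled start candidate at all. GlyP, glycogen phosphorylase, had 1218 at rank 53 and -180 bp, with 495.2 at rank 72 and 720.4 at rank 42. AGBE, the glycogen branching enzyme, had 178.1, with 111.3 at rank 1693 and 48.08 at rank 10171. Hex-A and GlyP, like Gapdh2 and Eno, were high in every list, and AGBE was not.

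Among other copies and regulators of glycolytic steps, 3 of 6 had an optimal start summit. These were Pgm1, phosphoglucomutase, at 234.5, Pfrx, which makes the Pfk activator fructose 2,6-bisphosphate, at 222.4, and fbp, fructose-1,6-bisphosphatase, which opposes Pfk, at 182.4. Ald2 and Pglym87, further copies of aldolase and phosphoglycerate mutase genes, had no pooled candidate at a start. Fermentation and glycerol had 3 of 6, with Ldh, lactate dehydrogenase, at 584.9 and rank 319, and 237.0 at rank 350 and 352.5 at rank 315 in the lists labelled replicate 2 and 3. Adh, alcohol dehydrogenase, had 257.6 and Gpdh1, glycerol-3-phosphate dehydrogenase, 213.7.

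Beyond pyruvate, 4 of 9 genes of its entry into mitochondria and onward use were marked. Pcb, pyruvate carboxylase, had 524.0, Pdhb, a subunit of pyruvate dehydrogenase, 240.5, Men, malic enzyme, 214.8, and Mpc1, a subunit of the mitochondrial pyruvate carrier, 203.3. The value of Mpc1 rested on 1 replicate list, with 20.27 at rank 22458 in the list labelled replicate 2 and 164.6 at rank 1387 in that labelled replicate 3. The TCA cycle had 5 of 17, with Idh3g at 730.9 and Fum1 at 568.7 the highest, and mAcon1 (334.5), Ogdh (198.5) and Idh (176.2) below them. Several of these summits are also within 500 bp of a start of another gene, so the values cannot be assigned to 1 of them. This holds for Fum1 (ND-ASHI), Idh3g (CG4743), mAcon1 (CG43345 and CG43346), Pdhb (alpha-Man-Ib), Mpc1 (CG42613), Adh (Adhr), Gpdh1 (Sfp26Ad), bigmax (Hmu) and ERR (Atg18a).

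Gluconeogenesis (0 of 2) and the pentose phosphate pathway (0 of 5) had no optimal summit at a start, against 13.3% of all genes. In lists this short, none is close to that share. Pepck2 and Zw each had an optimal summit in the gene body. Among the strongest 2980 of a replicate list were Pepck1, at rank 1648 in the list labelled replicate 2, and Rpe, at rank 2838 in that labelled replicate 3. Pepck1 and Pepck2, the phosphoenolpyruvate carboxykinases, had 156.8 and 45.14, and Taldo, transaldolase, and Zw, glucose-6-phosphate dehydrogenase, were the highest of 5 pentose phosphate genes by rule and had 100.7 and 69.59. Of 8 regulators of glycolytic genes 3 were marked, foxo at 421.4, bigmax at 309.4 and ERR at 222.9. For foxo the values were 102.7 at rank 2029 in the list labelled replicate 2 and 352.5 at rank 314 in that labelled replicate 3. The gene of ERR, the receptor known to switch on embryonic glycolysis, was marked at -143 bp, with 113.7 at rank 1628 and 149.9 at rank 1651.

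**Figure D5:**
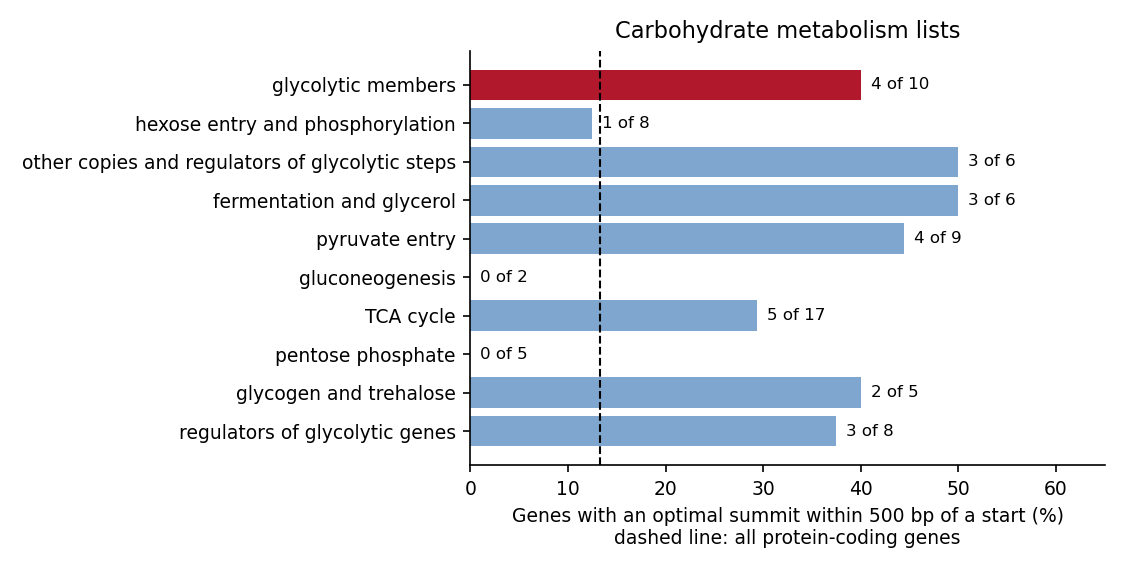
Percent of genes with an optimal summit within 500 bp of a start (horizontal axis, from 0) for the 10 glycolytic genes (red, top) and 9 other lists of carbohydrate metabolism, with counts beside the bars. The dashed line is the share of all protein-coding genes, 13.3%, and the glycolytic genes stand at 4 of 10.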

How the data were processed

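The deposited data are narrowPeak lists on dm6 and dm3 from ChIP-seq of 2 samples of 1 group. The signal value per peak (column 7) was used as the authors deposited it, with no normalization stated, to rank peaks within a list, and the summit position within each peak likewise came from the deposited lists. Per the labels, lists are peaks and background as input for IDR, per replicate or pooled, and the optimal list after IDR thresholding. Aligner, peak caller and IDR threshold: not given in the sources used here.

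Positions were annotated with Ensembl release 115 and sequences read from the Release 6 genome, which share dm6 coordinates, and every dm6 peak on the arms lay within the arm lengths. No dm3 annotation was used, so dm3 lists served only to compare replicate numbers. A summit counted at a start within 500 bp of any annotated transcript start of the gene, and otherwise in the body if inside the gene. Replicate candidates were matched within 200 bp. Coordinates are 1-based. The text names all 10 glycolytic genes, genes with a start near their summits, and, of each other carbohydrate list, every gene with an optimal start summit or else the 2 of highest signal. The genes, lists and words were chosen with earlier results of these data known, and the phases of the pathway and the printed stretches after the values were seen. No test was made, since there was 1 group and the signals chose the genes. Depth is unknown. The code that places summits was run on simulated data, and 1000 of 1000 genes were placed right, which checks the code only. To which gene a summit near starts of neighbouring genes belongs was not tested. Python 3.11.15, pandas 2.3.3, NumPy 2.4.6, SciPy 1.17.1, matplotlib 3.10.9 and Biopython 1.88 were used.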

Additional observations from a re-analysis of the deposited data

How the results depend on the processing

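The count of glycolytic genes with an optimal summit at a start, 4, was 2 with a window of 200 bp, 4 with 1000 bp, 3 with the upper 50% of optimal peaks, and 4 when any overlap of the peak with the window counted. With a single replicate list in place of the pooled one it was between 4 and 6. The share of all genes was 9.064% at 200 bp and 15.55% at 1000 bp. Counts with a pooled candidate ranged from 8 to 10 at starts and from 5 to 9 in bodies. The median rank of the strongest start candidate, 14.93% of the list, was 7.842% without replicate 3 and 16.1% without replicate 2, a gene with no candidate being counted at the end of the list. The Gapdh2 over Gapdh1 ratio, 39.92, was 40.75 with all candidates of each gene summed and 31.44 without replicate 3. It could not be formed without replicate 2 or with a window of 200 bp, since Gapdh1 then had no candidate. For single genes, 26 of 37 alternative ranks stayed within 1 SD of the 2 replicate lists and 11 did not, counting as moved any change for Gapdh1, which has no SD. That SD comes from the same 2 replicate values that are among the alternatives, and many changes of window left the rank as it was. The count is therefore no measure of how stable the ranks are. The causes were not tested. No paired analysis was possible because there was 1 group.

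Depth is unknown. The candidate lists hold 30000 peaks each, and a gene absent from a list has no value there, which does not show that it was unbound. Of the 10 genes, Ald1 and Pglym78 are the only ones whose place at starts among the strongest 2980 differed between the replicate lists. In gene bodies it differed for Pgk, present only in the list labelled replicate 3. Summits near starts of neighbouring genes (lin, PolZ1, Polr3F, CG11882, CG31937, Bacc, Rrp40, dmpd and those named beside the carbohydrate genes) cannot be assigned to 1 gene. Rrp40 has a start near a pooled Eno candidate of 69.08, and dmpd near a Pfk body candidate of 38.32 in the list labelled replicate 3. P-values were not computed.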
